A study of Mus musculus with 6 samples.

Results

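The netrin-G genes and the genes of their NGL partners formed a family of 5 members, Ntng1, Ntng2, Lrrc4c, Lrrc4 and Lrrc4b, out of 36291 gene rows in the count table. The members are listed by gene name, and the family was chosen by the KO against WT difference of Ntng1, which was already known. The KO against WT values of the 5 genes are therefore given as a description, and a p-value printed for a member places it in the table of all genes and is no independent support. All 5 passed the filter on low counts, as did 13835 genes in all.

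The RNA was taken at E14.5 from the telencephalon of mice of the Swiss strain. In both groups the cells were sorted as eGFP-positive cells targeted by the Nkx2-1-iCre driver, which acts in the medial ganglionic eminence (MGE), the birthplace of many cortical interneurons. The 3 KO libraries carried the knockout of Sip1, now called Zeb2, in those cells, and the 3 WT libraries were its controls. The labels name neither the Zeb2 alleles nor the alleles that the controls carried, and they do not say whether a library came from 1 embryo or from a pool, so p-values measure the spread between libraries. Each library carried 1 of the numbers K77, K79 and K80, once per genotype.

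Netrin-G proteins resemble the netrins in sequence but are tethered to the outer membrane by a lipid anchor and do not use the classical netrin receptors. Each binds a leucine-rich repeat protein of the NGL family on the facing cell: netrin-G1, from Ntng1, binds NGL-1, from Lrrc4c, and netrin-G2, from Ntng2, binds NGL-2, from Lrrc4. NGL-3, from Lrrc4b, binds receptor phosphatases of the LAR family instead. These pairs are known for setting up contacts between axons and defined stretches of dendrite, and NGL-1 for promoting the growth of thalamic axons.

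On GRCm38, Ntng1 lies at chr3:109780040-110144011 and Ntng2 at chr2:29194541-29253005, both on the minus strand. Lrrc4c lies at chr2:96318169-97631666 (plus strand), Lrrc4 at chr6:28661831-28831747 (minus strand) and Lrrc4b at chr7:44429018-44463351 (plus strand). The members are related in sequence, and reads of 36 bases had to be assigned between them. Across their longest annotated coding sequences (GENCODE M21), Ntng1 and Ntng2 were identical at 67.3% of 1570 aligned bases, and the NGL genes at 65.3 to 67.1% in pairs. The longest run of bases that Ntng1 and Ntng2 shared was 19, and that of Lrrc4 and Lrrc4b 21. These runs are shown with flanking bases, because they are the longest identical stretches of each pair. Windows that differ at only a few bases were not searched for. Capitals mark the shared run in coding bases 874 to 928 of Ntng1, 844 to 898 of Ntng2, 402 to 458 of Lrrc4 and 444 to 500 of Lrrc4b, counted from the A of the start codon.
Ntng1: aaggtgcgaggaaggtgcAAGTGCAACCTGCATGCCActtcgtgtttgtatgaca
Ntng2: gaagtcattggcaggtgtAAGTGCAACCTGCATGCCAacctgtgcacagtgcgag
Lrrc4: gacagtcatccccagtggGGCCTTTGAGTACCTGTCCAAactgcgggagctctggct
Lrrc4b: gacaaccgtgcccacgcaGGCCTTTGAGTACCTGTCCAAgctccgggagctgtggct
Each run was shorter than a read, and no 36-base window of a member's transcripts occurred in another member. Windows shared with other genes made up 0.0705% of those of Ntng1, 11% of those of Ntng2 and 0% of those of the NGL genes. The genes that share windows with Ntng2 include 6530402F18Rik, on the same strand, whose exons overlap 558 bases of Ntng2, so the Ntng2 level is uncertain to that extent. 6530402F18Rik itself averaged 7.80 ± 0.696 CPM in KO and 7.54 ± 1.66 CPM in WT (SD, n = 3 each). Lrrc4 lies inside the span of Snd1 on the opposite strand, but their exons do not overlap.

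The promoter windows of the 3 members with the highest log2 fold changes, Ntng1, Lrrc4c and Ntng2, are shown because Zeb2 is a DNA-binding repressor that recognises CACCT. Each window runs from 250 bases before to 50 bases after the start site in RefSeq (build GRCm38.p6), and capitals mark CACCT on either strand.
Ntng1, chr3:110143423-110143722, minus strand: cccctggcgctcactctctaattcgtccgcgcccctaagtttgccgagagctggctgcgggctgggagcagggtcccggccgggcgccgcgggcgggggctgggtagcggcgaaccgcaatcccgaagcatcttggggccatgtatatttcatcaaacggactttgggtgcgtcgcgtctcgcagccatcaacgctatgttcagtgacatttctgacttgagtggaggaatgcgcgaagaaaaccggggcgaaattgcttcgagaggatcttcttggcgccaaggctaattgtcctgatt
Lrrc4c, chr2:96317919-96318218, plus strand: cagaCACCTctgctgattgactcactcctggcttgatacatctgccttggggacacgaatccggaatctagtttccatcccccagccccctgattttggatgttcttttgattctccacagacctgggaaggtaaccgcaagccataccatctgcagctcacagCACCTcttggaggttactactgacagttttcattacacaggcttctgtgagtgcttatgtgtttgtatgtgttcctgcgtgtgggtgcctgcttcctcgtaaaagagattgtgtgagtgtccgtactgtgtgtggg
Ntng2, chr2:29248050-29248349, minus strand: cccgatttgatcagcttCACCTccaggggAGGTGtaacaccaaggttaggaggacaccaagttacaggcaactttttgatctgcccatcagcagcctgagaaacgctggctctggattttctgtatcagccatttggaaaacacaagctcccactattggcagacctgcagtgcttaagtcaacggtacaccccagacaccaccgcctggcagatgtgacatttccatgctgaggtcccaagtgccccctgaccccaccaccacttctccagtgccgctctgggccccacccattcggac
The Ntng1 window held 0 copies of CACCT and the Lrrc4c and Ntng2 windows 2 each. The Lrrc4 window also held 2, and the Lrrc4b window 0. The longer motif CACCTG, which contains CACCT, was found in 0 of the 5 windows. Among all 32851 promoter windows of the same length, 51.9% held CACCT and 20.2% held CACCTG, on either strand. For Ntng1, Ntng2 and Lrrc4b the start site used lies inside the gene span given above, so the window is not at the outermost start. These are matches of letters in 1 window per gene and say nothing of binding there or elsewhere.

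The libraries held 8323531 to 11069437 gene counts. Zeb2 was lower in each KO library, with 2856 (K77), 2759 (K79) and 3391 (K80) counts in KO and 6468, 5350 and 8094 in WT (log2 fold change -1.11, SE 0.138, edgeR adjusted p = 0.00116). WT K79 stood apart in Xist, the RNA that silences an X chromosome, with 26109 counts against 13 to 28 in the other 5 libraries, and in the Y-linked gene Ddx3y, with 3 counts against 532 to 864. Values without that library are given where it changes the call of a member, and for lists and other genes in part. Levels below are in CPM, the usual scaling of counts to library size, here with TMM factors, and fold changes are KO over WT.

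Ntng1 was the member that differed most between the genotypes. Its level was 27.3 (K77), 19.9 (K79) and 27.2 (K80) CPM in KO, resting on 227, 202 and 300 counts, and 2.73, 4.41 and 4.75 CPM in WT, resting on 25, 46 and 50 counts. The lowest KO library lay far above the highest WT library. The mean was 24.8 ± 4.22 CPM in KO and 3.96 ± 1.08 CPM in WT (SD, n = 3 each), a 6.18-fold difference with a 95% interval of 4.49 to 8.51. On the log2 scale that is 2.63 (SE 0.207, edgeR adjusted p = 9.3e-05), the rank of 9 from the top among the 13835 genes tested.

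**Figure D1:**
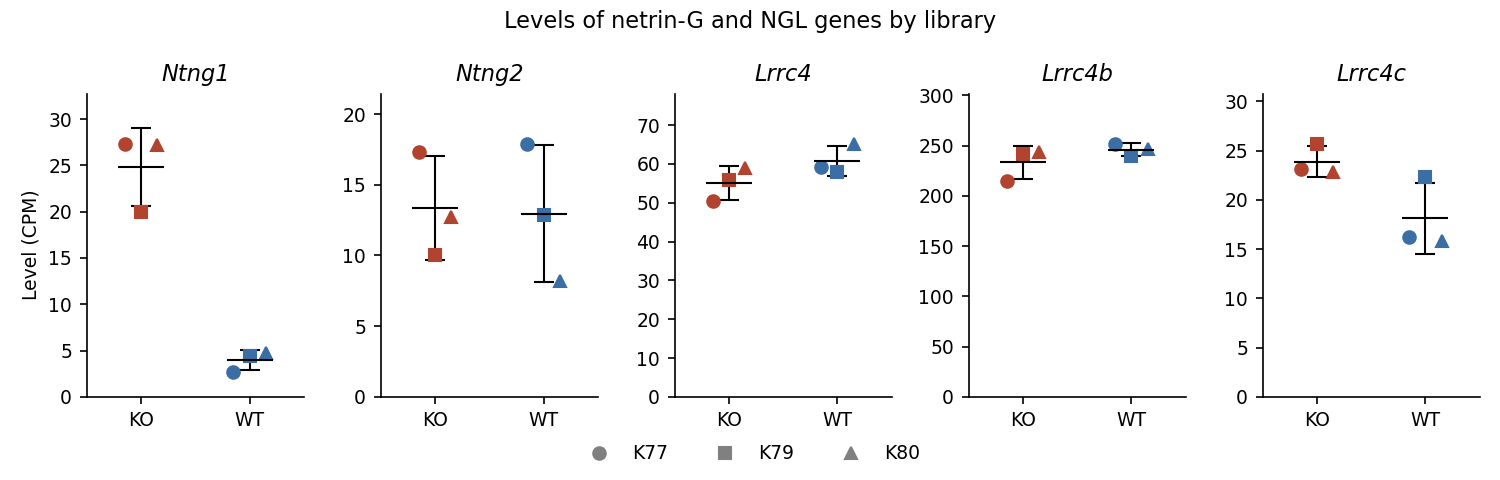
Level of each member in CPM (vertical axes, each from 0) in KO and WT libraries. Symbols give the K number, bars the mean and whiskers 1 SD (n = 3 each). Ntng1 sits at 19.9 to 27.3 CPM in KO and at 2.73 to 4.75 CPM in WT, Lrrc4c at 22.8 to 25.7 CPM in KO and 15.9 to 22.3 CPM in WT, and the genotypes overlap for the other 3 genes.

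The Ntng1 difference was present at each K number but not of one size. KO over WT was 10.0-fold at K77, 4.52-fold at K79 and 5.73-fold at K80. WT K77 had the lowest Ntng1 level of the 6 libraries, while KO K77 was level with KO K80. Leaving out each library in turn gave log2 fold changes of 2.43 to 2.77 (edgeR adjusted p 0.000197 to 0.0014), and without WT K79 the value was 2.71. In the authors' deposited table Ntng1 had a fold of 6.26, and 5.54% of all genes there had an adjusted p under 0.05.

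Ntng2, the other netrin-G gene, varied more between libraries than between genotypes. It stood at 17.3 (K77), 10.1 (K79) and 12.7 (K80) CPM in KO and at 17.9, 12.9 and 8.16 CPM in WT. The K77 library was the highest of each genotype, and the ranges overlapped. The means were 13.4 ± 3.67 CPM in KO and 13.0 ± 4.86 CPM in WT (SD, n = 3 each), a log2 difference of 0.04 (SE 0.274). The 95% interval of the fold, 0.673 to 1.57, is wide, so a moderate change in either direction was not detectable at this spread.

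The 2 netrin-G genes together therefore differed in amount and in make-up. Their summed level was 44.6 (K77), 30.0 (K79) and 39.9 (K80) CPM in KO and 20.6, 17.3 and 12.9 CPM in WT, with no overlap. Ntng1 supplied 61.2% (K77), 66.4% (K79) and 68.2% (K80) of the netrin-G counts in KO, with Wilson 95% intervals that together span 56.1 to 72.4%. In WT it supplied 13.2%, 25.6% and 36.8%, with intervals that together span 9.12 to 45.1%. Ntng1 was thus the larger part of the counts in each KO library and the smaller part in each WT library. The intervals cover counting error only, and the shares are of counts, not scaled for length. Per kilobase of annotated exon, Ntng1 did not become the larger part throughout KO. It stood at 3.31 CPM against 4.34 for Ntng2 in KO K77 and at 2.42 against 2.52 in KO K79. In KO K80 it stood at 3.30 against 3.18, and in each WT library it lay below Ntng2.

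**Figure D2:**
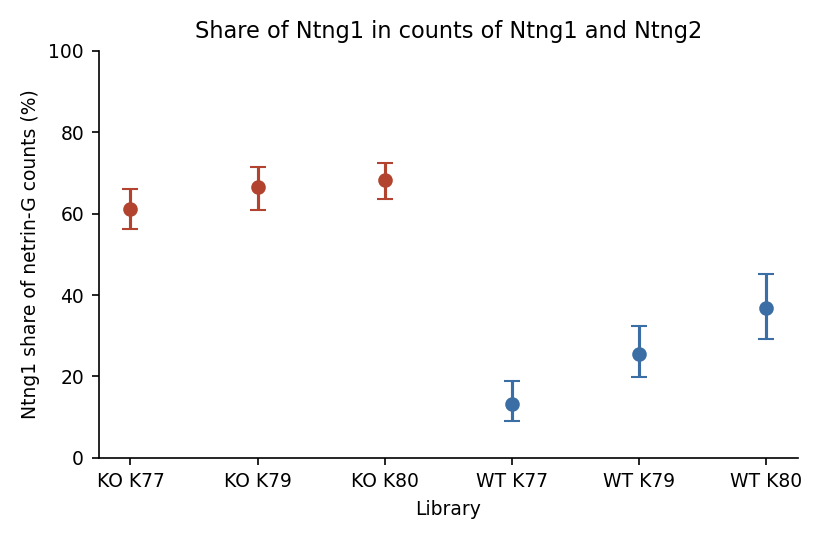
Share of Ntng1 in the summed counts of Ntng1 and Ntng2 (vertical axis, percent) in each library (horizontal axis). Points are single libraries and whiskers Wilson 95% intervals. The KO libraries lie at 61.2 to 68.2% and the WT libraries at 13.2 to 36.8%.

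Lrrc4c, which encodes the netrin-G1 partner NGL-1, was somewhat higher in KO. Its level was 23.1 (K77), 25.7 (K79) and 22.8 (K80) CPM in KO and 16.2, 22.3 and 15.9 CPM in WT. The genotypes did not overlap, but KO K80 and WT K79 were almost level. The means were 23.9 ± 1.56 CPM in KO and 18.1 ± 3.59 CPM in WT (SD, n = 3 each), a 1.32-fold difference with a 95% interval of 1.06 to 1.63. The log2 fold change was 0.40 (SE 0.141), and the gene was not called over all genes (edgeR adjusted p = 0.152).

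The Lrrc4c call depended on how the libraries were treated. With the K number as a block its log2 fold change was 0.40 (SE 0.105, edgeR adjusted p = 0.0392). Without WT K79, the WT library nearest to KO for this gene and the one that stood apart in Xist, it was 0.57 (adjusted p = 0.0179). Without any other single library the adjusted p was 0.211 to 0.409. At each K number KO exceeded WT, by 1.42-fold (K77), 1.152-fold (K79) and 1.44-fold (K80).

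Lrrc4, which encodes the netrin-G2 partner NGL-2, was slightly lower in KO at each K number, with no call. It stood at 50.4 (K77), 56.0 (K79) and 58.8 (K80) CPM in KO and at 59.3, 57.9 and 65.1 CPM in WT. KO K80 lay above WT K79, so the genotypes overlapped. The fold was 0.907 with a 95% interval of 0.797 to 1.03 (log2 fold change -0.14, SE 0.0835, edgeR adjusted p = 0.434).

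Lrrc4b, which encodes NGL-3, was the most abundant member and the most even. It had 214 (K77), 242 (K79) and 244 (K80) CPM in KO and 251, 239 and 247 CPM in WT. KO K77 was the lowest library and WT K77 the highest, and the other 4 lay between 239 and 247 CPM. The fold was 0.950 with a 95% interval of 0.860 to 1.05 (log2 fold change -0.07, SE 0.0643, edgeR adjusted p = 0.617). A change as large as that of Ntng1 lies outside the intervals of the other 4 members.

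Within the NGL group, Lrrc4b supplied 74.5 to 74.9% of the counts in KO and 74.9 to 76.9% in WT. Lrrc4 supplied 17.3 to 18.1% in KO and 18.1 to 19.9% in WT. Lrrc4c supplied 8.02% (K77), 7.93% (K79) and 7.01% (K80) in KO and 4.97%, 6.97% and 4.83% in WT. The NGL sum was 312 ± 21.3 CPM in KO and 325 ± 4.75 CPM in WT (SD, n = 3 each), with overlapping libraries.

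Across the family, edgeR called 1 of the 5 members, Ntng1, against 6.27% of all genes tested (867 of 13835). Of the 13835, 3.64% were called higher in KO and 2.62% lower. Members without overlap between the genotypes numbered 2, Ntng1 and Lrrc4c, where 23.2% of all genes had none. With the K number as a block Ntng1 and Lrrc4c were called higher, where 10.6% of all genes were called in either direction and 6.13% of all genes higher. Because the family was chosen with this contrast known, nothing is read from these counts. The K numbers pair the libraries by the check given under the processing.

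**Figure D3:**
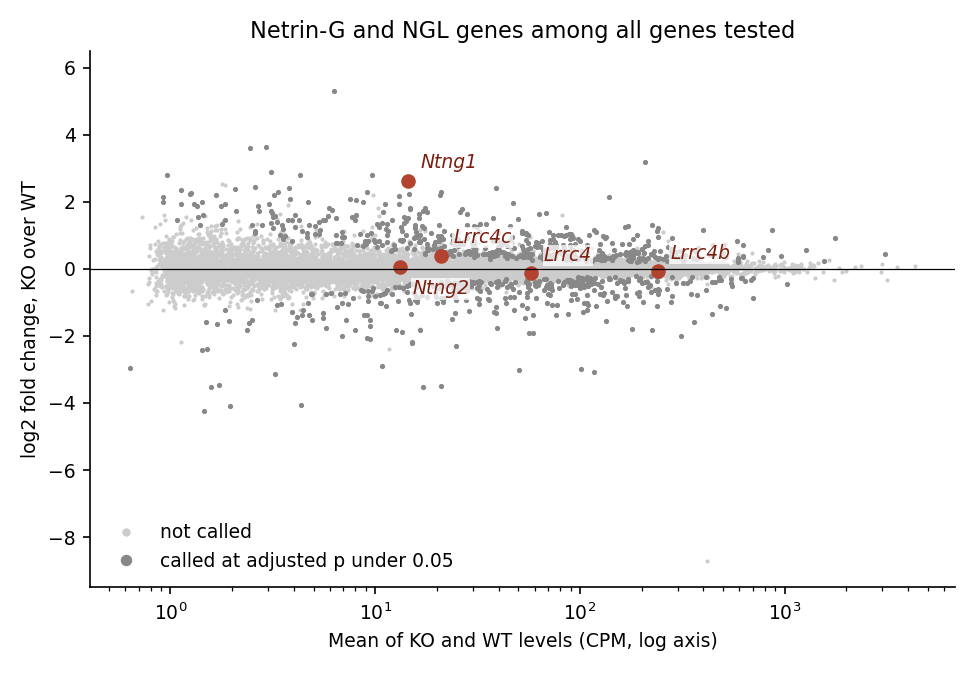
log2 fold change of KO over WT (vertical axis) against the mean of the KO and WT levels in CPM (horizontal log axis) for the 13835 genes tested, with the 5 members in red. Dark grey points are called at an edgeR adjusted p under 0.05. Ntng1 stands at 2.63, Lrrc4c at 0.40 and the other members near 0.

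**Figure D4:**
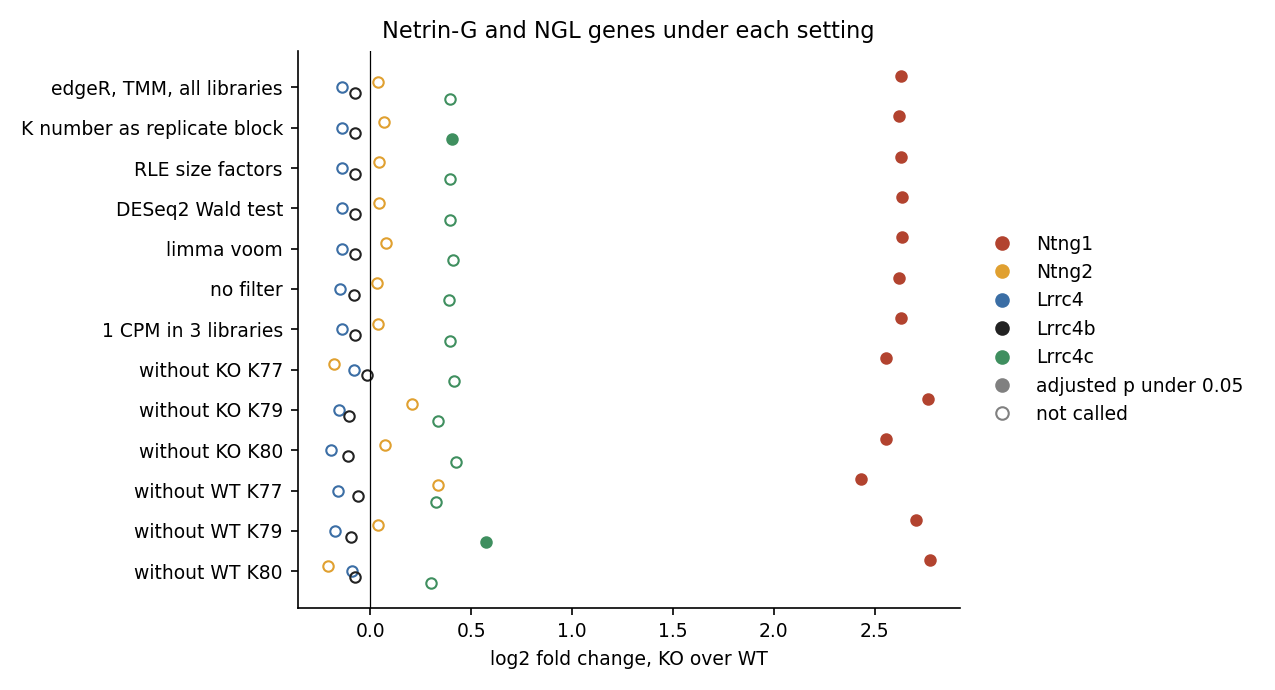
log2 fold change of KO over WT (horizontal axis) of each member under each setting (rows), filled where the adjusted p was under 0.05. Ntng1 stays between 2.43 and 2.77 and filled throughout, Lrrc4c is filled with the K number as a block and without WT K79, and Ntng2 crosses 0.

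Levels were also scaled to CPM per kilobase of annotated exon, the scale on which different genes can be compared. In KO the order was Lrrc4b (79.7 ± 5.67), Lrrc4 (13.8 ± 1.08), Lrrc4c (5.16 ± 0.337), Ntng2 (3.35 ± 0.92) and Ntng1 (3.01 ± 0.512 CPM per kb, SD, n = 3). In KO only Ntng2 and Ntng1 overlapped. In WT the order was the same, with Lrrc4b at 83.9 ± 2.12, Lrrc4 at 15.2 ± 0.96, Lrrc4c at 3.92 ± 0.777, Ntng2 at 3.25 ± 1.22 and Ntng1 at 0.481 ± 0.131 CPM per kb. In WT it was Lrrc4c and Ntng2 that overlapped, and Ntng1 stood below all other members. With the longest transcript as the length, Ntng2 came before Lrrc4c in both genotypes. The exon lengths come from GENCODE M21 on GRCm38, a later build than the mm9 of the counts.

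The genes whose profile over the 6 libraries was most like that of Ntng1 were Htr1a, Syt6 and Chodl. Likeness was the root-mean-square difference between log2 CPM profiles centred on their own mean, among genes of at least 5 CPM on average. It was 0.232 for Htr1a, a serotonin receptor gene, 0.321 for Syt6, a synaptotagmin gene, and 0.391 for Chodl, which encodes the membrane lectin chondrolectin. Htr1a averaged 34.1 ± 4.52 CPM in KO and 7.39 ± 1.70 CPM in WT (SD, n = 3 each). The Ntng1 profile is mostly its KO against WT difference, so genes near it share that difference by selection. For Lrrc4c the nearest profiles were those of L3mbtl3 (0.0333), Slc9a7 (0.0357) and Kcnh2 (0.0471), and near Ntng2 lay Slc30a10 (0.114) and Tcfap2c (0.16). Near Lrrc4 lay Max, Mettl13 and Man1a2 (0.0232 to 0.0295), and near Lrrc4b Heatr3, Amotl2 and Ccm2 (0.0257 to 0.028), where any flat gene comes close.

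The nearest tested gene on each side of Ntng1 on chromosome 3 was also higher in KO. Vav3, a guanine nucleotide exchange factor gene on one side, averaged 31.5 ± 7.02 CPM in KO and 19.4 ± 2.39 CPM in WT (log2 fold change 0.69, SE 0.16, edgeR adjusted p = 0.0321). Prmt6, an arginine methyltransferase gene on the other, averaged 48.7 ± 2.70 CPM in KO and 37.3 ± 2.39 CPM in WT (0.38, SE 0.0824, adjusted p = 0.0229). Both were singled out after their values were seen. Vav3 lost its call without 4 and Prmt6 without 5 of the 6 single libraries (adjusted p up to 0.0985 and 0.0918). The next tested neighbours, Slc25a24 (0.26) and Gm5548 (0.59), were not called. Beyond these, Fam102b (0.16) and Amy1, which was lower in KO (-0.49), were not called. Among neighbours of the other 4 members, Med27 near Ntng2, Arf5 and Rbm28 beside Lrrc4, Syt3 and Aspdh beside Lrrc4b, and Api5 and B230118H07Rik beside Lrrc4c were not called either.

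Genes that act beside the NGL proteins showed no call. As edgeR called only 6.27% of all genes, nothing is read from 0 calls in lists this short. The LAR receptor phosphatases Ptprf, Ptprd and Ptprs, which bind NGL-3, and their liprin adaptors gave 0 calls among 7 genes by edgeR, DESeq2 and limma voom, with 0 at an unadjusted p under 0.05. Their median log2 fold change was 0.09, against -0.01 over all genes. Ppfia3 (0.19, adjusted p = 0.341) and Ppfia2 (0.12, adjusted p = 0.556) had the lowest p. The scaffold genes Dlg1 to Dlg4, whose products include the NGL-binding protein PSD-95, also gave 0 calls among 4 by the same tools, with 0 at an unadjusted p under 0.05 and a median of 0.05. Dlg3 (-0.10) and Dlg2 (0.14) were nearest to a call (edgeR adjusted p 0.484 and 0.534).

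Other leucine-rich repeat adhesion genes, the wider class of the NGL proteins, changed in part. Of the 30 genes in that list 7 rose and 2 fell, while 21 had no call, with a median log2 fold change of 0.20. Among all genes tested, edgeR called 3.64% higher (6.13% in the block fit) and 2.62% lower. Whether the list differs from those shares was not tested. With the K number as a block 9 rose, Lingo2 (0.81, edgeR adjusted p = 0.00228) and Lrrtm2 (0.37, adjusted p = 0.0104) being the additions. Lrrn1 rose by 0.92, Flrt3 by 0.72, the synaptic organiser gene Slitrk5 by 1.00 and Lrfn2 by 0.82 (edgeR adjusted p 0.000139, 0.000288, 0.00259 and 0.00788). The number that rose was 4 without KO K80 or WT K77. The number that fell was 0 without KO K80 and 1 without KO K77, KO K79, WT K77 or WT K80. Calls among all genes were also fewer in those fits. Those higher went from 504 to 270 without KO K80 and to 310 without WT K77. Those lower went from 363 to between 175 (without KO K80) and 291 (without WT K80). The summed level of the 30 was 1513 to 1610 CPM in KO and 1178 to 1288 CPM in WT.

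The secreted netrins, relatives of Ntng1 and Ntng2, and their receptors, which netrin-G proteins do not use, also changed in part. Among 11 with enough counts 7 rose and 1 fell, 3 had no call, the median log2 fold change was 0.53, and Ntn5 had 0 counts. Over all genes 3.64% were called higher, and the difference between this list and the other lists was not tested. With the K number as a block 8 rose, Dscam (0.47, edgeR adjusted p = 0.0114) being the addition. Unc5b rose by 2.40, near the 2.63 of Ntng1, and Ntn1, the classical netrin, by 1.28, against the 0.04 of Ntng2. Ntn3 rose by 0.42 and the Dscam relative Dscaml1 fell by 0.95 (edgeR adjusted p 0.000169 for Unc5b, 0.00447 for Ntn1, 0.0111 for Ntn3 and 0.000218 for Dscaml1). Ntn3 lost its call without KO K80 (0.0552), and the number that rose was 2 without KO K80, 3 without KO K79 and 4 without WT K77 or WT K80.

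**Figure D5:**
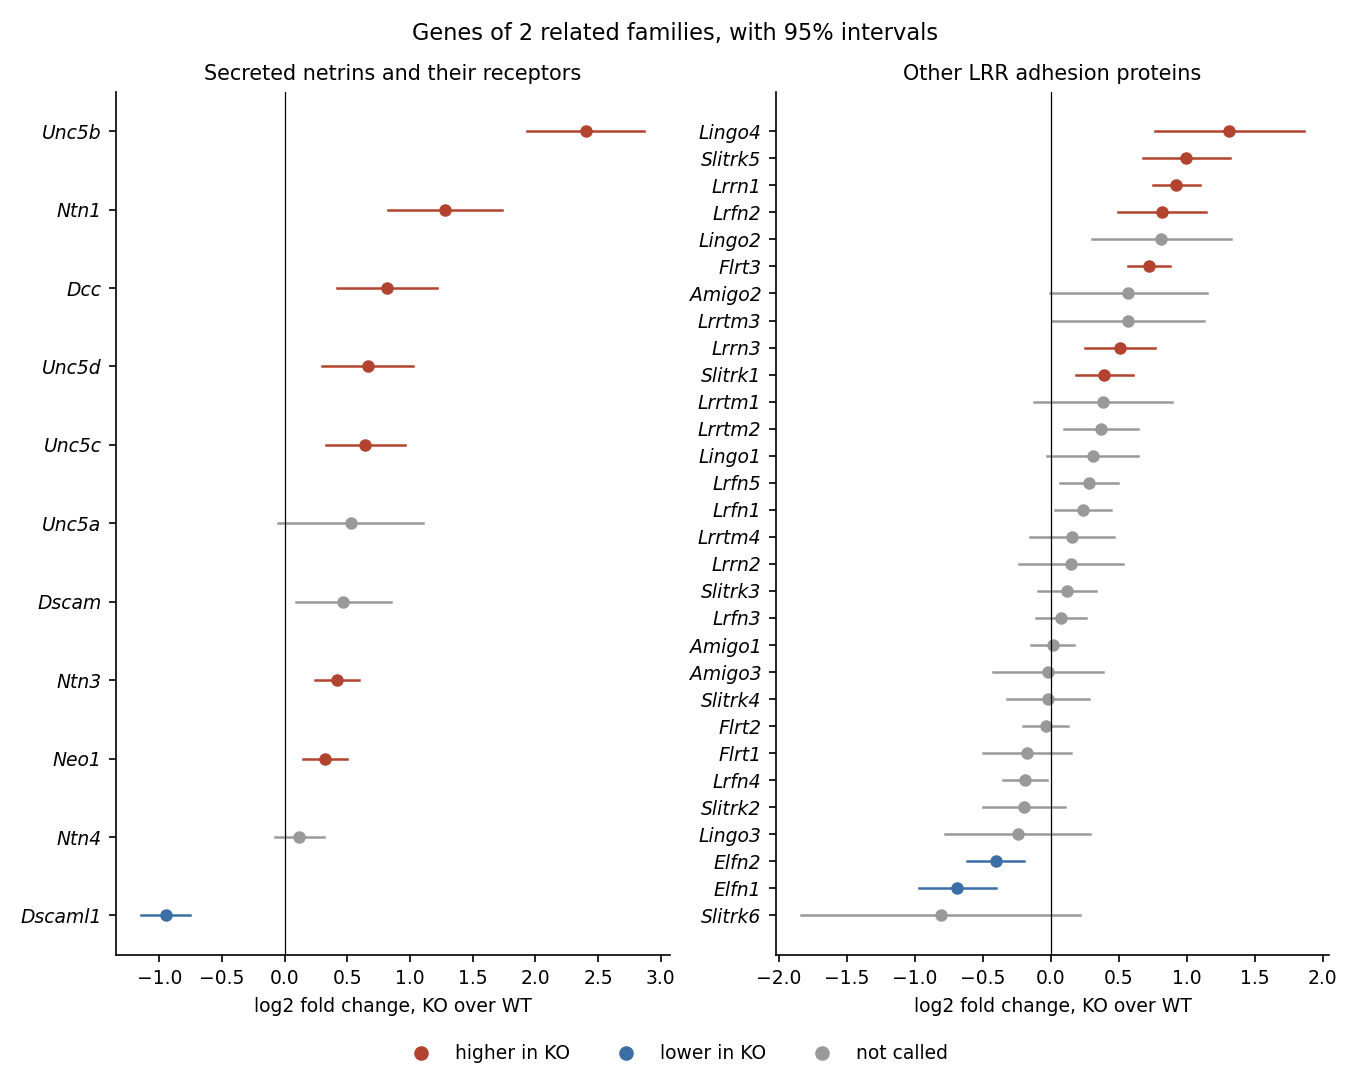
log2 fold change of KO over WT with its 95% interval (horizontal axes) for the 11 tested secreted netrin and receptor genes and 30 other leucine-rich repeat adhesion genes (rows). Red marks genes higher in KO, blue lower and grey not called. Unc5b at 2.40 is the highest, and Dscaml1 at -0.95 the lowest called.

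Markers were read beside these values, since in sorted bulk RNA fewer cells of a type and less RNA per cell cannot be told apart. The MGE lineage genes Lhx6, Dlx1 and Sst were abundant in both genotypes, Lhx6 at 1096 ± 147 CPM in KO and 1057 ± 117 CPM in WT. Of 12 genes of that lineage 3 rose, 4 fell and 5 were not called, with a median of 0.02. The shares over all genes were 3.64% higher and 2.62% lower. Gad2 rose by 0.56 and Nkx2-1 by 0.70, while Slc32a1 fell by 0.53 and Dlx6 by 0.40, and the Dlx6 call was lost when KO K79, KO K80 or WT K77 was left out (edgeR adjusted p up to 0.0754). The number that fell was 1 without KO K79, KO K80 or WT K77 and 2 without WT K80. The summed level was 6293 to 7255 CPM in KO and 5560 to 6457 CPM in WT.

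Thalamic and diencephalic neurons, where Ntng1 is known to be abundant, gave 0 calls among 6 tested markers by edgeR, DESeq2 and limma voom, and 0 had an unadjusted p under 0.05 (median 0.29). With 6.27% of all genes called by edgeR, nothing is read from 0 calls among 6. Their summed level was 65.8 to 73.9 CPM in KO and 53.8 to 67.2 CPM in WT, overlapping between genotypes. Gbx2 (0.31) and Lhx9 (0.70) were nearest to a call (adjusted p 0.386 and 0.323), and Barhl2, Shox2 and Olig3 had 0 to 12 counts in each library. Of 11 markers of subpallial projection and cholinergic neurons 3 rose, Penk by 1.67, Isl1 by 0.96 and Gbx1 by 0.64, with 0 lower and 8 not called (median 0.32). The share called higher over all genes was 3.64%, or 6.13% with the block. Negative values stood among those not called, for Ebf1 (-0.58), Tac1 (-0.30) and Foxp1 (-0.04). Isl1 and Gbx1 each lost their call under 5 of 12 alternatives, Isl1 with DESeq2 among them (edgeR or DESeq2 adjusted p up to 0.153 for Isl1 and 0.0957 for Gbx1). Their sum was 725 to 907 CPM in KO and 401 to 698 CPM in WT. Without KO K79, KO K80, WT K77 or WT K80 1 of that list rose, without KO K77 2 did, and 5 did without WT K79 or with the block. Their part in the Ntng1 level was not tested.

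Oligodendrocyte precursor markers were lower in KO. Of 6 tested, 5 fell (list median -2.14), among them Olig1 (-1.81), Gpr17 (-4.07), Pdgfra (-2.29) and Cspg4 (-2.00). The share called lower over all genes was 2.62%. Olig2 (-0.40) was not called without the block and was called lower with it (edgeR adjusted p = 0.0148). The number lower was also 6 with DESeq2 and with no filter. The summed level was 50.9 to 59.3 CPM in KO and 126 to 148 CPM in WT. Their part in the values of the 5 members was not tested. The lists that follow are short, and edgeR called 6.27% of all genes, so nothing is read from 0 calls in them. Cortical glutamatergic markers gave 0 calls among 10 by edgeR, DESeq2 and limma voom, and 1 had an unadjusted p under 0.05 (Emx1, -0.58; list median -0.34). Their sum overlapped, at 255 to 335 CPM in KO and 234 to 508 CPM in WT. Neurod6 (-0.39) was next, and 2 members of that list fell without WT K80. Vessel and meningeal markers gave 0 edgeR calls among 12, 1 at an unadjusted p under 0.05 (Col1a2, 1.33, called with the block at 0.0221) and 0 calls with DESeq2 and limma voom (median 0.08). Their sum was 31.2 to 53.4 CPM in KO and 27.3 to 49.5 CPM in WT, and Dcn (0.90) was next. Of 10 microglial and blood markers only 3 were tested, with 0 edgeR calls, 0 at an unadjusted p under 0.05, and likewise 0 calls with DESeq2 and limma voom (median -1.0). Hbb-y (-1.04, called with the block at 0.0217) and Csf1r (-1.0) came first, the sum was 5.35 to 10.5 CPM in KO and 8.16 to 13.9 CPM in WT, and Hba-a1 had 0 counts. In the authors' deposited table, Neurod6 (adjusted p = 0.0043), Col1a2 (0.00494) and Hbb-y (0.00604) were under 0.05, so that table does call members of the cortical, vessel and blood lists.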

How the data were processed

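Poly-A RNA libraries of 6 samples were sequenced as single reads of 36 cycles, per the labels' protocols. The authors deposited raw read counts per gene, as one file per sample and as a matrix with the same values. The authors' deposited table of their comparison holds p-values and, for each gene, a fold (ratio) and log2 of it. Its column headers name groups A and B only. Taken as KO over WT, the 777 genes called both there and by edgeR all had one sign in both. TopHat 1.2.0, HTSeq 0.5.3p3, DESeq 1.2.2 and build mm9 are named in the submitters' processing notes. The sources used here do not give the annotation or the strand setting. Rows that name no gene (19.7 to 21.8% without a feature and 1.94 to 1.99% ambiguous) were left out.

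Counts were tested in R 4.3.3 with edgeR 4.0.16 (TMM, filterByExpr with a minimum count of 10, quasi-likelihood test, Benjamini-Hochberg adjustment at 0.05 over 13835 genes). The procedure was also run on simulated counts. These held no K number effect, so that run cannot speak for paired libraries. SE is the log2 fold change over the square root of F. Alternatives used limma 3.58.1 (voom), DESeq2 1.42.0, RLE factors, other filters, the K number as a block and each library left out. Libraries with the same K number moved together around the mean of their genotype (correlation over genes 0.256, 0.197 and 0.175 for K77, K79 and K80, each over 0.1), so the number was taken to pair them. The main fit left that number out and so ignores the pairing, and values with the block are given as an alternative. Libraries of a genotype differed beyond sampling noise (chi-square per degree of freedom 3.65 to 10.1).

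The members, 4 pathway lists, 7 marker lists and tests were chosen with earlier results of these data known. Besides members and Zeb2, up to 4 called genes per list by lowest p were named, or 2 where none was called, and the 3 most similar profiles per member; some genes are not reported here. Coding DNA (Biopython 1.88) was compared in place of the planned protein comparison.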

Additional observations from a re-analysis of the deposited data

How the results depend on the processing

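Ntng1 was called higher under all 12 alternatives run, and Lrrc4 and Lrrc4b were called under none and stayed negative in all 12. Lrrc4c was called with the K number as a block (0.40) and without WT K79; leaving out single libraries gave 0.30 to 0.57. Ntng2, called in none, turned negative without KO K77 (-0.18) and without WT K80 (-0.21), with a range of -0.21 to 0.34. The block changed no other call among the 5 members.

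Over all genes 504 were higher and 363 lower. The numbers were 848 and 615 with the K number as a block, 742 and 546 with no filter, and 270 to 645 higher and 175 to 399 lower with 1 library left out, the fewest without KO K80, with 287 and 211 without KO K79 and 310 and 218 without WT K77. The most calls, 645 higher and 399 lower, came without WT K79, and 508 and 283 came without KO K77. Without WT K79, 8 secreted netrin and receptor genes and 8 other leucine-rich repeat genes were higher. Fewer libraries were tested with 1 left out, and the cause of the shifts was not tested. With 1 library left out, the list counts ranged as follows: secreted netrins and receptors 2 to 8 higher; other leucine-rich repeat genes 4 to 8 higher and 0 to 2 lower; MGE lineage 1 to 4 lower; subpallial markers 1 to 5 higher; cortical glutamatergic markers 0 to 2 lower. DESeq2 called 1 other leucine-rich repeat gene lower. With no filter 5 subpallial and 1 vessel marker were called higher, and with the block 5 subpallial and 1 vessel marker higher and 1 blood marker lower. Some genes of similar profile that were not called turned in sign. These were Heatr3 without KO K77 (range -0.077 to 0.0059), Slc30a10 without KO K79 or WT K77 (-0.37 to 0.12) and Tcfap2c without WT K77 (-0.52 to 0.056). L3mbtl3 and Kcnh2, near Lrrc4c in profile, were called only under alternatives. Both were called with the K number as a block and without WT K79, and L3mbtl3 also with DESeq2 and with no filter.

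Without length scaling the ranks in KO were 3 for Ntng1, 4 for Lrrc4c and 5 for Ntng2. By longest transcript, a length chosen after seeing the data, Ntng2 ranked 3 and Lrrc4c 4 in both genotypes. The shorter motif CACCT was in 3 of the 5 promoter windows. The 25 to 50 Ntng1 counts per WT library limit the precision of its fold change.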
